A study of Mus musculus with 10 samples.

Results

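The stress keratins of mouse skin were followed as 4 genes chosen by name: Krt6a, Krt6b, Krt16 and Krt17. All 4 were present among the 18 keratin genes and the 9779 genes measured in every library, and all 4 passed the filter on low counts. The libraries came from ear skin, according to the labels, of c57/Bl6 mice that were 6 to 8 weeks old. In 4 libraries the mice had received imiquimod with the solvent DMSO, in 4 they had received imiquimod with benzamil, and 2 were from untreated skin; topical treatment lasted 6 days. The titles of the untreated libraries carry the letters WT, which the labels do not explain; no allele or transgene is named for any group. Imiquimod is an agonist of Toll-like receptor 7 whose cream produces a psoriasis-like dermatitis in mice, and benzamil is an amiloride derivative that blocks the epithelial sodium channel. The DMSO group therefore served as the solvent control for benzamil. No group received DMSO alone, so effects of the solvent and of imiquimod cannot be told apart against untreated skin. The design text places treatment on back and ears and calls the untreated control back skin, whereas every label says ear, so body site and treatment cannot be told apart in that comparison either. The labels do not say that replicates came from separate animals, and p-values measure only the spread between these libraries.

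Keratins form filaments only as pairs of a type II and a type I chain. Krt6a and Krt6b are type II chains, and their type I partners are Krt16 and Krt17. In resting interfollicular epidermis these genes are nearly silent, whereas the hair follicle, the nail and other appendages express them constitutively. They are switched on in keratinocytes after wounding, ultraviolet light or irritation and in psoriatic plaques, and for that reason are called stress, wound or hyperproliferation-associated keratins. Krt17 is also known for roles in keratinocyte growth and in cytokine expression, and Krt16 for roles in redox balance and innate immune signalling.

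The partners lie in separate clusters. In GENCODE M21 on mm10, Krt6a (chr15:101689910-101694307) and Krt6b (chr15:101676023-101680287) each have 9 exons on the minus strand of the type II cluster, with 9622 bases between them. Krt16 (chr11:100246091-100248902) and Krt17 (chr11:100256217-100261029) each have 8 exons on the minus strand of the type I cluster, 7314 bases apart. Krt6a and Krt6b are near-identical copies: their coding sequences aligned with 97.8% identity (1625 of 1662 aligned bases), against 78.2% for Krt16 and Krt17 and 61.5% to 63.3% for the 4 pairs across the types. Because the library kit reads the 3′ end of a transcript, what matters for telling the copies apart is the end of each gene. The last 90 coding bases of each, all inside the last exon and ending with the stop codon, are given here from the GENCODE transcripts, 5′ to 3′, for each pair of copies. Capitals mark letters without an equal partner when these 90-base ends of the pair are aligned, so the run of lower case shows how much of the coding end is shared. The capitals that open Krt6a face no letter among the 90 given for Krt6b, so they do not show a difference in sequence. These bases are not the end of the transcript, because the 3′ untranslated region follows them.
Krt6a, chr15:101690467-101690556, minus strand: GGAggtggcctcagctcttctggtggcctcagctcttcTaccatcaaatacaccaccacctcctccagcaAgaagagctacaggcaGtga
Krt6b, chr15:101676529-101676618, minus strand: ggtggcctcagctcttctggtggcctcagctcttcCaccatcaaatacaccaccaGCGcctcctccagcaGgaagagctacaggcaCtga
Krt16, chr11:100246234-100246323, minus strand: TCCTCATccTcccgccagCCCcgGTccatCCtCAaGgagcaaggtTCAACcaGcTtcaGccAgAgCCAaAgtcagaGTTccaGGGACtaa
Krt17, chr11:100256402-100256491, minus strand: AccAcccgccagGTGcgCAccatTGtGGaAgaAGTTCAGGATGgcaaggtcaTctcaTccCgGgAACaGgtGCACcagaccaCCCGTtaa
In the Krt6 pair 84 of the 90 letters had an equal partner, and in the Krt16 and Krt17 pair 50 did. Beyond the stop codon the Krt6 copies part further: their 3′ untranslated regions (557 bases in Krt6a, 506 in Krt6b) aligned with 78.9% identity. None of the 451 windows of 50 bases in the last 500 bases of Krt6a or of Krt6b occurred in a transcript of another gene. For Krt16, 16.9% of such windows occurred elsewhere, chiefly in Gm11597, and for Krt17 9.53% did, chiefly in Krt14. Values of Krt6a and Krt6b remain uncertain where a read falls in the shared coding part, and with their reads summed into 1 gene the fall with benzamil was also called. An antisense gene, Gm49428, overlaps the 3′ part of Krt6a on the opposite strand, and the sources used here do not state whether counting used strand.

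Depth differed between groups. Over the 9779 genes the libraries held 259262 to 935714 reads with DMSO, 138440 to 375455 with benzamil, and 74614 and 71144 untreated. Ribosomal RNA made up 22.1% to 28.8% of these reads with DMSO, 31.0% to 45.7% with benzamil, and 34.2% and 38.6% untreated. Levels are given in CPM, counts per 1e6 reads of the 5245 tested genes, scaled between libraries by TMM; they are not divided by transcript length, and levels of different genes are not compared. In untreated libraries 1 read was worth 13.5 and 14.8 CPM, so a gene with no read there may lie anywhere below 3 reads, 40.4 and 44.5 CPM. The 9 keratinocyte markers were all present and summed to 29890 to 37647 CPM with DMSO, 32058 to 36280 with benzamil, and 13648 and 14817 untreated. Of 15 hair follicle markers, 10 were not in the joined tables, Shh, Lgr5 and Lhx2 among them. The other 5 summed to 88.3 to 130 CPM with DMSO, 79.4 to 155 with benzamil, and 80.8 and 104 untreated, so their ranges overlapped. Fibroblast markers summed to 400.0 to 846 CPM with DMSO, 467 to 1350 with benzamil, and 6155 and 14335 untreated, and skeletal muscle markers to 175 to 1155, 675 to 1541, and 2788 and 2840. Sebaceous gland markers (7 of 8 present) were at 1425 to 2948, 4122 to 7290, and 5577 and 7982 CPM in the same order of groups. Neutrophil markers, of which only Cxcr2 and Retnlg of 9 were present, were at 33.1 to 98.7, 6.67 to 20.03, and 0 in both untreated libraries. Macrophage markers (5 of 7 present) were at 58.9 to 88.8, 26.7 to 143, and 13.5 and 74.2 CPM. Langerhans and dendritic cell markers (6 of 7 present) were at 316 to 386, 349 to 382, and 390 and 430.1 CPM. The part of these differences in the results below was not tested. In whole skin, fewer keratinocytes expressing a keratin and less of its RNA in each cannot be told apart.

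Imiquimod with DMSO came with much more RNA of all 4 stress keratins than in untreated skin. All 4 were called higher (edgeR's quasi-likelihood test, Benjamini-Hochberg adjusted p under 0.05), where 9.93% of all tested genes were called higher. With benzamil, 3 of the 4, Krt6b, Krt6a and Krt17, fell from the DMSO level, where 12.1% of all tested genes were called lower. Krt16 did not pass that test. The 4 had a median log2 fold change of −1.68 with benzamil against DMSO, beside −0.01 over all tested genes, and of 5.70 with DMSO against untreated, beside 0.18.

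Krt6a, the first of the type II chains, was at 3703, 4016, 2469 and 1924 CPM in DMSO libraries 1 to 4. With benzamil it was at 428, 861, 327 and 1318 CPM, and in the 2 untreated libraries at 67.3 and 104 CPM, from 5 and 7 reads. The 3 groups were ordered with no overlap. Non-overlapping groups with benzamil below DMSO were found for Krt6a and Krt6b and for 13.4% of all tested genes. DMSO lay wholly above untreated for all 4 stress keratins and 29.5% of tested genes, and benzamil wholly above untreated for all 4 and 19.5%. The means were 3028 ± 994 CPM with DMSO (SD, n = 4), 734 ± 454 with benzamil (SD, n = 4) and 85.6 ± 25.8 untreated (SD, n = 2). The fall with benzamil was 4.18-fold (log2 fold change −2.06 ± 0.31 SE, edgeR adjusted p = 5.87e-05). DMSO stood above untreated by 5.15 ± 0.58 on the log2 scale (edgeR adjusted p = 9.94e-07), and benzamil above untreated by 3.09 ± 0.59 (edgeR adjusted p = 0.00279). Thus the level with benzamil was below the solvent control and still above untreated skin, although the second of these gave adjusted p = 0.05 in edgeR without untreated library 1.

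Krt6b, the second type II gene, had the largest fitted difference between benzamil and DMSO of the 4. Its levels were 3432, 3449, 1895 and 961 CPM with DMSO and 212, 270, 66.7 and 453 CPM with benzamil. The untreated libraries had 2 reads and 1 read, 26.9 and 14.8 CPM. No benzamil library reached the lowest DMSO library, and the benzamil level ran 6.79-fold from lowest to highest. Means were 2434 ± 1223 CPM with DMSO and 251 ± 160 CPM with benzamil (SD, n = 4 each), a 9.89-fold fall (log2 fold change −3.31 ± 0.37 SE, edgeR adjusted p = 2.28e-06). Against untreated skin the summed reads gave a ratio of 131 for DMSO, with a 95% counting interval of 44.7 to 635, and of 11.4 for benzamil, with an interval of 3.84 to 55.6. Both were called in edgeR (adjusted p = 1.81e-06 and 0.0368), but the call for benzamil rested on 3 untreated reads and was lost without benzamil library 2 or 4 or either untreated library (adjusted p 0.059 to 0.162). With the reads of Krt6a and Krt6b summed into 1 gene, the log2 fold change of benzamil over DMSO was −2.48 ± 0.34 SE (edgeR adjusted p = 1.57e-05).

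Krt16, the type I partner most often paired with Krt6 in stressed epidermis, was even across the DMSO group and uneven with benzamil. DMSO libraries 1 to 4 were at 2634, 1972, 2068 and 1999 CPM. Benzamil libraries 1 to 3 were at 503.5, 604 and 440.3 CPM, while benzamil library 4 was at 3113 CPM, the highest Krt16 level of any library. Untreated library 1 held 4 reads (53.8 CPM) and untreated library 2 held 0. Benzamil libraries 1 to 3 thus lay below every DMSO library and library 4 lay above them all. The means were 2168 ± 313 CPM with DMSO and 1165 ± 1300 CPM with benzamil (SD, n = 4 each), and the difference was not called (log2 fold change −0.93 ± 0.40 SE, edgeR adjusted p = 0.0948). Without benzamil library 4 it was −2.06 ± 0.24 (edgeR adjusted p = 1.90e-06). Over those same libraries Krt6a was at −2.46 ± 0.30. DMSO was above untreated by 6.25 ± 0.92 and benzamil above untreated by 5.32 ± 0.94 on the log2 scale (edgeR adjusted p = 3.89e-05 and 0.00119). Those sizes rest on the 4 reads of untreated library 1: from summed reads the ratios were 82.0 (95% counting interval 32.0 to 301) and 31.5 (12.3 to 116). Without benzamil library 4 the fitted log2 fold change of benzamil over untreated was 4.18 (edgeR adjusted p = 2.74e-05).

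Krt17, the other type I partner and a marker of appendage keratinocytes, was at 900, 621, 541 and 469 CPM with DMSO. With benzamil it was at 191, 227, 133 and 532 CPM. Untreated library 1 held 0 reads and untreated library 2 held 8 (119 CPM), the largest disagreement between the 2 untreated libraries among the 4 genes. Again benzamil library 4 alone reached into the DMSO range, above DMSO library 4. The means were 633 ± 189 CPM with DMSO and 271 ± 178 CPM with benzamil (SD, n = 4 each), a 2.46-fold fall (log2 fold change −1.30 ± 0.32 SE, edgeR adjusted p = 0.00461). DMSO was above untreated by 3.48 ± 0.64 (edgeR adjusted p = 0.000497). Benzamil over untreated was 2.18 ± 0.70 and was not called (edgeR adjusted p = 0.0731). The 2.44% of tested genes called higher in that comparison included the other 3 stress keratins. Against untreated library 2 alone, the one with Krt17 reads, the log2 fold changes were 2.52 for DMSO (edgeR adjusted p = 0.0215) and 1.21 for benzamil (edgeR adjusted p = 0.32).

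**Figure D1:**
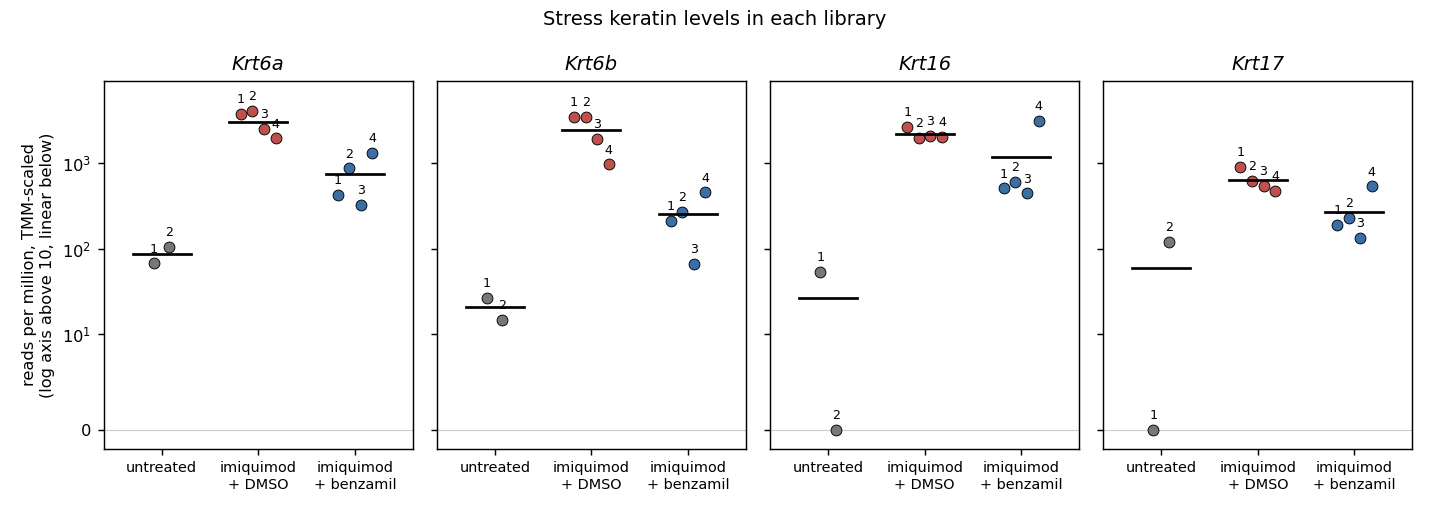
Each point is a library, numbered by its replicate; the vertical axis gives TMM-scaled CPM (logarithmic above 10, linear below), and horizontal bars are group means. Krt6a and Krt6b separate all 3 groups, whereas benzamil library 4 reaches the DMSO range for Krt16 (3113 CPM) and Krt17 (532 CPM).

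Benzamil library 4 had the highest level of each stress keratin within its group. Relative to the mean log2 CPM of benzamil libraries 1 to 3 it was higher by 2.59 (log2) for Krt16, 1.53 for Krt17, 1.48 for Krt6b and 1.40 for Krt6a. Krt16 ranked 6th of 5245 tested genes in this difference, and the median gene differed by −0.00025. Sprr2i, S100a8, Lcn2, Sprr2f and Cd34 ranked above Krt16, and S100a9 and Il19 just below; these 7 were named after their values were seen. Sprr2i and Sprr2f encode cornified envelope precursors, S100a8 and S100a9 the calprotectin subunits, and Lcn2 the antimicrobial lipocalin 2. This library was the shallowest of the treated ones (138440 reads). Its keratinocyte markers (32505 CPM) lay within the range of the other 3, its macrophage markers (143 CPM against 26.7 to 46.7) and sebaceous gland markers (7290 CPM against 4122 to 5490) were higher, and its hair follicle markers (79.4 CPM against 130.2 to 155) were lower. Whether these differences have a part in its stress keratin levels was not tested.

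**Figure D2:**
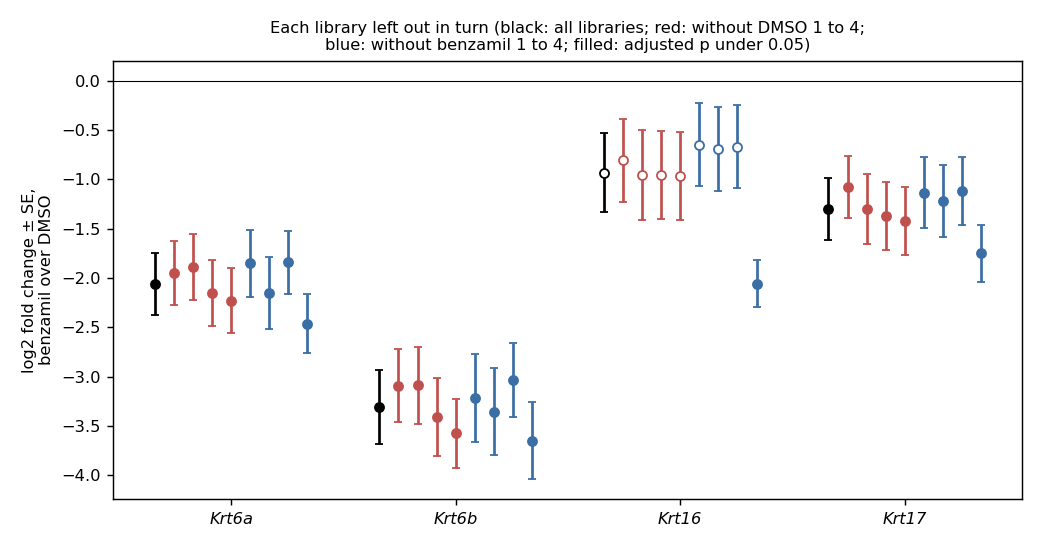
Log2 fold change of benzamil over DMSO with its SE for each gene, with all libraries (black) and with each DMSO (red) or benzamil (blue) library left out in turn; filled points have adjusted p under 0.05. Krt6a, Krt6b and Krt17 stay below 0 and called throughout, and Krt16 passes the threshold in 1 of these fits, the one without benzamil library 4 (−2.06).

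With the libraries left out 1 at a time, Krt6a ranged from −2.46 to −1.84, Krt6b from −3.65 to −3.04 and Krt17 from −1.75 to −1.07, and each was called every time (highest edgeR adjusted p 0.0335, Krt17). The authors' deposited table gave the same order of sizes for benzamil over DMSO, with log2 fold changes of −2.03 for Krt6b, −1.51 for Krt6a, −1.11 for Krt17 and −0.55 for Krt16. In that table, where 6.43% of genes with an adjusted p were called lower, the authors' DESeq2 adjusted p was 1.5e-05, 0.00113 and 0.00236 for the first 3 and 0.429 for Krt16. Their fold changes were smaller than those computed here from the same reads. For untreated over DMSO the authors' deposited table gave −4.76 for Krt6a, −5.47 for Krt6b, −5.46 for Krt16 and −3.13 for Krt17, each called (highest DESeq2 adjusted p 2.37e-06), where 4.65% of genes were called lower.

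The partners did not fall by equal factors. A ratio of 2 genes' reads within 1 library needs no scaling between libraries, and for 6 pairs the log2 ratio was compared between 4 DMSO and 4 benzamil libraries with a two-sided exact permutation test, whose smallest possible p is 0.0286. Krt6b over Krt6a stood at −0.11, −0.22, −0.38 and −1.001 in DMSO libraries and at −1.01, −1.67, −2.24 and −1.53 in benzamil libraries. The groups did not overlap, though DMSO library 4 and benzamil library 1 nearly met, and the mean log2 ratio differed by −1.18 with benzamil (exact permutation p = 0.0286, adjusted over 6 pairs 0.0429). Untreated skin, with 3 Krt6b reads, was at −1.14 and −2.32. In reads, Krt6b thus held 76.8% to 92.7% of the Krt6a count in DMSO libraries 1 to 3, less in DMSO library 4, and 21.2% to 49.8% in the benzamil libraries.

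Across the types, the benzamil minus DMSO difference of the log2 ratio was −1.96 for Krt6b over Krt16, −2.01 for Krt6b over Krt17 and −0.83 for Krt6a over Krt17 (each exact permutation p = 0.0286, adjusted 0.0429). For Krt6a over Krt16 it was −0.78 and did not pass (exact permutation p = 0.143, adjusted 0.171). Krt16 over Krt17 averaged 1.81 ± 0.25 with DMSO and 1.76 ± 0.54 with benzamil (SD, n = 4 each), a difference of −0.05 (exact permutation p = 0.886) that is smaller than either spread. So both type II genes fell by a larger factor than Krt17, and Krt6b by a larger factor than all the others. The 2 type I genes were not shown to differ. The 4 adjusted values hold only with all 8 libraries: with any 1 left out every direction was kept and the adjusted p lay between 0.0571 and 0.0857, and adding 2 in place of 0.5 to each count also put them above 0.05. Against untreated skin the exact test cannot go below 0.0667, and no pair could pass.

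**Figure D3:**
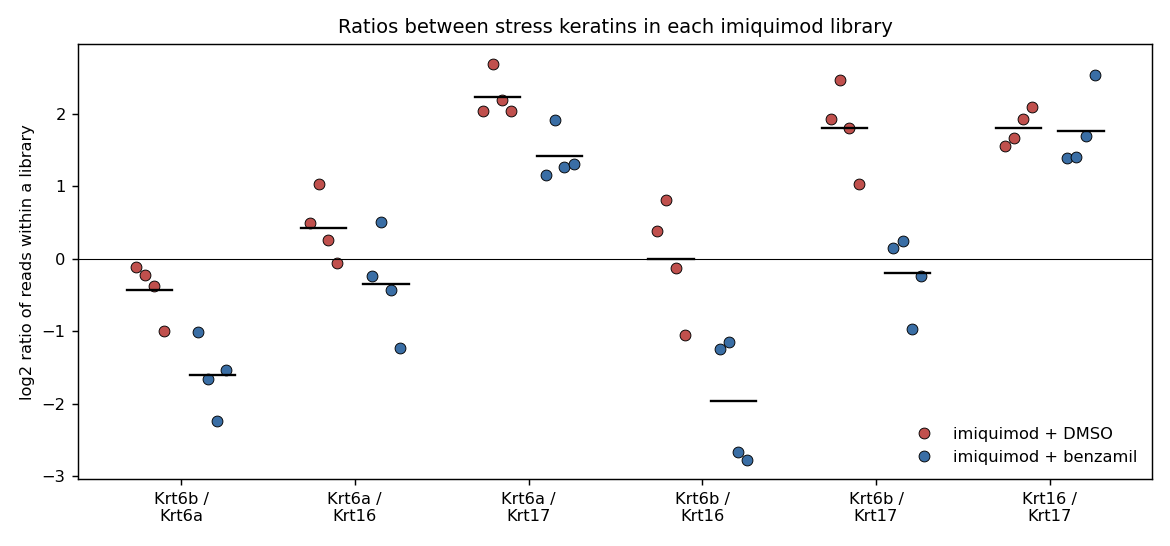
Log2 ratio of reads between 2 stress keratins within each library for DMSO (red) and benzamil (blue), with group means as bars. The benzamil points lie below all DMSO points for Krt6b over Krt6a, Krt6b over Krt16, Krt6b over Krt17 and Krt6a over Krt17, and those of Krt16 over Krt17 overlap around 1.8.

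The stress keratins were also set against keratin RNA as a whole, a share that does not depend on how much non-epithelial tissue a sample held. The 4 genes together made up 19.3%, 24.5%, 14.6% and 13.3% of the reads of all 18 keratin genes in DMSO libraries 1 to 4. With benzamil they made up 2.36%, 3.91%, 1.62% and 7.64%, and in untreated skin 0.779% (11 of 1412 reads, exact 95% interval 0.39% to 1.39%) and 1.12% (16 of 1430 reads, 0.641% to 1.81%). The lowest DMSO interval began at 12.8% and the highest benzamil interval, that of library 4, ended at 8.21%. These intervals cover the counting of reads within a library only, not the spread between libraries. The group means were 17.97% ± 5.08 with DMSO, 3.88% ± 2.68 with benzamil (SD, n = 4 each) and 0.949% ± 0.24 untreated (SD, n = 2). Keratin reads themselves were 5.75% to 7.28% of all reads outside ribosomal RNA with DMSO, 6.95% to 9.40% with benzamil, and 2.88% and 3.27% untreated. The fall in the stress keratin share therefore occurred while keratin RNA in total was no lower in the benzamil libraries. That total averaged 8.03% with benzamil and 6.38% with DMSO, and a larger total by itself lowers the share. Of all reads outside ribosomal RNA, the stress keratins made up 1.14% ± 0.32 with DMSO and 0.33% ± 0.27 with benzamil (SD, n = 4 each).

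**Figure D4:**
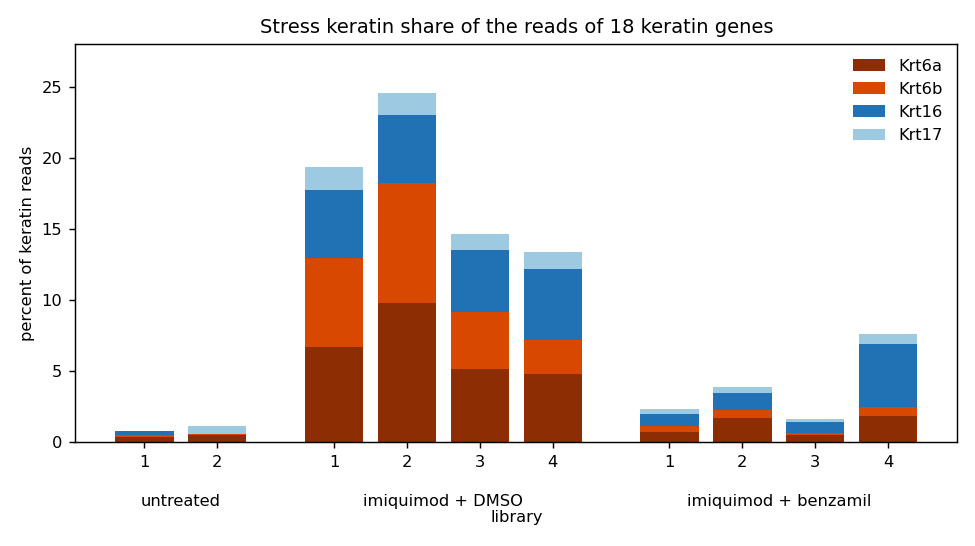
Stacked bars give the percent of the reads of 18 keratin genes that belonged to each stress keratin, by library. The 4 DMSO libraries reach 13.3% to 24.5%, the benzamil libraries 1.62% to 7.64%, and in benzamil library 4 Krt16 makes up most of the bar.

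Within the share, the type II and type I parts were also set against each other, as a description with no test. The log2 ratio of Krt6a and Krt6b reads to Krt16 and Krt17 reads was 1.01, 1.53, 0.74 and 0.22 with DMSO and −0.12, 0.44, −0.54 and −1.04 with benzamil. The ratio was above 0 in all DMSO libraries and, of the benzamil libraries, in library 2 alone, which lay above DMSO library 4, so the groups overlapped. In benzamil library 4 Krt16 took 4.39% of keratin reads, inside the range of the DMSO libraries (4.34% to 4.98%), while Krt6b took 0.639% against 2.40% to 8.42% with DMSO.

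With all libraries and TMM scaling, no other tested keratin was called lower with benzamil. Krt1, Krt5 and Krt14 were, like the stress keratins, higher with DMSO than untreated and lower with benzamil, but those falls were not called. Of the other 14 keratin genes measured, 12 were tested, and with benzamil 7 of them rose from the DMSO level and 0 fell, where 9.91% of all tested genes were called higher. Those that rose included Krt2, the type II chain of late suprabasal cells, from 8507 ± 3011 to 26635 ± 8534 CPM (SD, n = 4 each; log2 fold change 1.65 ± 0.28 SE, edgeR adjusted p = 0.000207). Krt78 rose by 1.88 ± 0.29, Krt77 by 1.84 ± 0.54, Krt24 by 1.72 ± 0.34, Krt15 by 1.17 ± 0.28, Krt23 by 0.99 ± 0.28 and Krt80 by 0.80 ± 0.20 on the log2 scale. Without benzamil library 4 the count was again 7 and 0. It was 5 and 2 with scaling by total counts alone, where Krt23 and Krt80 were not called and Krt1 and Krt5 were called lower; that scaling moved the median of all genes from −0.01 to −0.26 and the share of calls that were higher from 45% to 19.7%, and did not change the direction of any stress keratin. The basal pair Krt5 and Krt14 and the early suprabasal pair Krt1 and Krt10 were not called, with log2 fold changes of −0.51, −0.19, −0.56 and 0.52 (edgeR adjusted p 0.0795 to 0.564).

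Against untreated skin, imiquimod with DMSO was called higher for 5 of the 12 other keratins (Krt1, Krt10, Krt14, Krt79 and Krt5) and lower for 3 (Krt15, Krt77 and Krt24), where 8.45% of tested genes were called lower. Krt1 rose most, by 4.27 ± 0.41 on the log2 scale, and the others by 1.10 to 1.93. Krt15, a keratin of basal and bulge cells, fell by 3.18 ± 0.33. Without untreated library 1 the counts were 3 and 2, and with replicate numbers as a block they were 1 and 1. Krt77 stood at 214 ± 284 CPM in untreated skin (SD, n = 2). Limma on the deposited values called Krt77 neither here nor for benzamil over DMSO (limma adjusted p = 0.317 and 0.462). The 2 hair keratins in the tables, Krt75 and Krt84, had 32 and 22 reads in all libraries together and were not tested, and the rest of the 25 hair keratins listed and all 5 of simple epithelia were not in the joined tables.

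**Figure D5:**
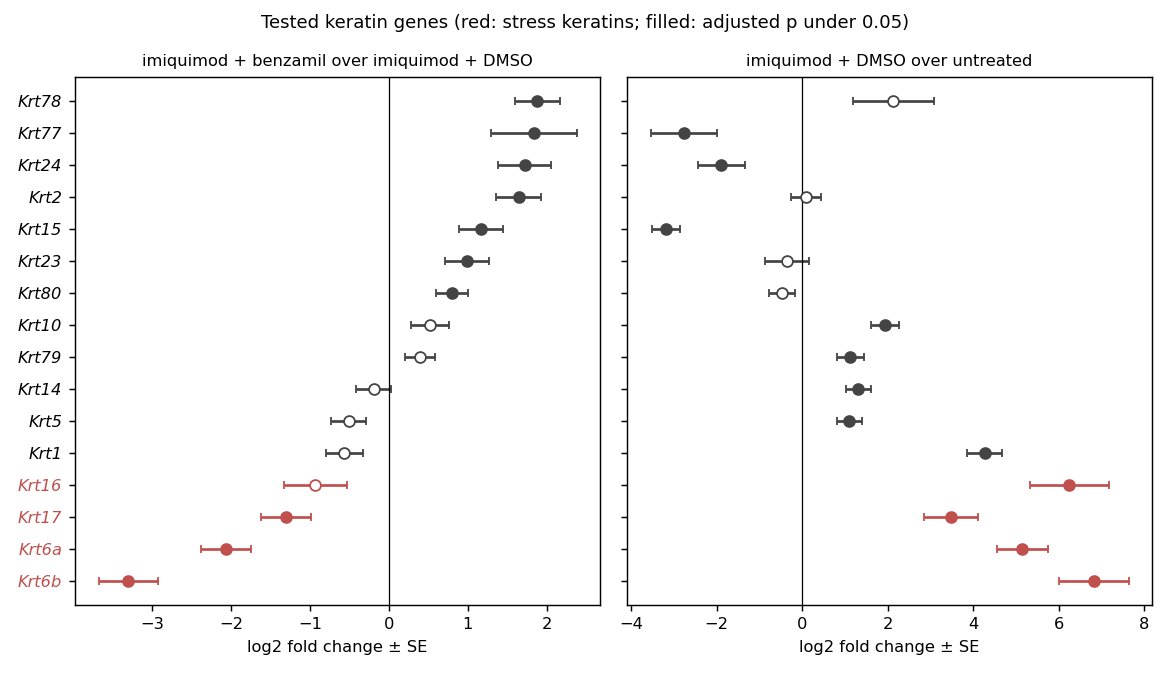
Log2 fold change with its SE of the 16 tested keratins for benzamil over DMSO (left) and DMSO over untreated (right); stress keratins are red and filled points have adjusted p under 0.05. The 4 stress keratins hold the lowest values on the left (−3.31 to −0.93), where the SE bars of Krt16 and Krt1 overlap. On the right they lie above 3, as does Krt1 (4.27 ± 0.41).

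Gene lists around the stress keratins (growth factors, transcription factors, cytokine receptors, NRF2 targets, binding partners and cell cycle genes) were counted in the same fit for benzamil over DMSO and are described without a set test. Of all tested genes 12.1% were called lower and 9.91% higher, with a median of −0.01. Ligands of the epidermal growth factor receptor drive stress keratin transcription in keratinocytes. Of the receptor and its ligands, 6 of 7 were tested, 4 were lower (12.1% of all tested genes) and 1 higher (9.91% of all; list median −1.46). Epgn (epigen) had a log2 fold change of −4.003 ± 0.60, Tgfa (transforming growth factor alpha) of −2.46 ± 0.41 and Hbegf (heparin-binding EGF-like growth factor) of −1.73 ± 0.36. Btc (betacellulin) rose by 2.88 ± 0.46 (edgeR adjusted p 5.56e-05 to 0.00135 for these 4). Over the 4 benzamil libraries Epgn held 5 reads, Tgfa 14 and Hbegf 30, so the sizes of their falls rest on few reads.

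Of 18 tested genes listed as transcription factors acting on stress keratin genes, 8 were lower with benzamil (12.1% of all tested genes) and 1 was higher (9.91% of all), with a list median of −0.83. Whether they act on the stress keratin genes in this skin was not tested. The AP-1 subunit genes Junb and Fosl2 had log2 fold changes of −2.31 ± 0.34 and −1.57 ± 0.35, and Stat3, which transmits signals of gp130 cytokines, of −1.39 ± 0.21 (edgeR adjusted p = 3.67e-05, 0.00231 and 5.87e-05). Nfe2l2, which encodes the oxidative stress factor NRF2, fell by 1.06 ± 0.22 (edgeR adjusted p = 0.00113), and the 1 higher call, named after its value was seen, was Gata3, by 0.83 ± 0.19 (edgeR adjusted p = 0.00253). Of 9 tested NRF2 target genes 3 were lower (12.1% of all tested genes) and 1 higher (9.91% of all), with a median of −0.07, and the single higher call is about the background share. Slc7a11, the cystine transporter, was at −2.86 ± 0.27, Gsta4, a glutathione transferase, at −1.95 ± 0.37 and Prdx1, a peroxiredoxin, at −1.88 ± 0.31, and Hmox1, haem oxygenase, rose by 1.23 ± 0.31 (edgeR adjusted p 3.82e-07 to 0.00634).

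Of 10 tested cytokine receptor genes of keratinocytes, 3 were lower and 0 higher (12.1% and 9.91% of all tested genes; median −0.17). Osmr, the oncostatin M receptor, was at −1.60 ± 0.47, Il1rl2, the interleukin-36 receptor, at −1.16 ± 0.35 and Ifngr1, an interferon gamma receptor chain, at −0.72 ± 0.23 (edgeR adjusted p 0.017 to 0.0262). Osmr held 13 reads over the 4 benzamil libraries. Without benzamil library 4 this list held 1 lower and 1 higher call. Of 12 tested genes for keratin binding partners and linkers, 3 were higher and 0 lower (9.91% and 12.1% of all tested genes; median 0.10): Dst, the bullous pemphigoid antigen that anchors filaments, rose by 1.58 ± 0.22, Pkp3, a desmosomal plakophilin, by 0.84 ± 0.20, and Ppl, periplakin, by 0.80 ± 0.19 (edgeR adjusted p 1.77e-05 to 0.00453). With scaling by total counts alone that list held 1 higher and 2 lower calls. Of 15 tested cell cycle genes 6 were lower and 0 higher (12.1% and 9.91% of all tested genes; median −0.87), led by Cdc20 (−1.98 ± 0.44), Mcm6 (−1.80 ± 0.40), Rrm2 (−1.60 ± 0.42) and Cdk1 (−1.59 ± 0.38), which act in mitosis or DNA replication (edgeR adjusted p 0.0024 to 0.00742). Cdc20, Mcm6, Rrm2 and Cdk1 held 13, 14, 15 and 18 reads over the 4 benzamil libraries. In the cell cycle list 4 to 7 were lower with 1 library left out and 11 with scaling by total counts alone. Mki67, the proliferation marker Ki-67, named after its value was seen, was not called at −0.07 ± 0.19. In DMSO over untreated, which shares the DMSO libraries, the counts of higher and lower calls were 3 and 1 for the growth factor list, 6 and 1 for the transcription factors, 3 and 0 for the NRF2 targets, 1 and 2 for the cytokine receptors, 5 and 2 for the partners and linkers, and 8 and 0 for the cell cycle genes, beside 9.93% of all tested genes called higher and 8.45% called lower. The 8 higher cell cycle calls became 2 without untreated library 1 and 3 without untreated library 2. The 1 higher cytokine receptor of 10 is about that background share. Of the higher calls, Epgn, Osmr, Slc7a11, Gsta4, Ccna2, Cdk1, Cdc20, Mcm4, Mcm5 and Mcm6 had 0 reads in the untreated libraries. They passed the filter on low counts through the treated libraries alone, so the size of their rise over untreated skin was not measured.

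The genes whose levels over the 10 libraries were most like each stress keratin were found by the root mean square difference of their log2 CPM after centring each gene. This is a description, since the libraries differ in depth and group. The log2 CPM carried a prior count of 2, which narrows differences among genes with few or no untreated reads. Nearest to Krt6a were Klk13 (0.48), Stfa2 (0.49), Gjb2 (0.57), Sprr2e (0.57) and Slc7a11 (0.57). Their fitted log2 fold changes of DMSO over untreated were 8.86, 9.03, 6.08, 9.42 and 9.14, against 5.15 for Krt6a. The nearest to Krt6b were Stfa1 (0.49), Gjb2 (0.55), Stfa2 (0.70), Krt6a (0.74) and Sprr2d (0.75). Gjb2 encodes connexin 26, a gap junction protein, the Stfa genes encode stefin A protease inhibitors, and the Klk genes encode kallikrein proteases. Krt16 had no gene as close: its nearest were Cstdc5 (0.85), Stfa3 (0.92), Sprr1b (1.01), Sprr2d (1.01) and Klk6 (1.01). Among the nearest to Krt17 were Chil1 (0.58), Cnfn (0.68), Klk10 (0.70) and Actr3 (0.76). By this measure Krt6a ranked 4th for Krt6b, and Krt6b ranked 17th for Krt6a, but Krt17 ranked 270th for Krt16 and Krt16 ranked 2486th for Krt17, with untreated libraries at 0 reads in opposite places for the 2 genes.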

How the data were processed

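RNA of 10 skin libraries (500 ng each, 3′ mRNA kit with molecular identifiers, 150-cycle kit, per the labels) was processed by the authors with STAR, featureCounts and DESeq2 on mm10, per the submitters' processing notes; their versions, and whether reads with 1 identifier were collapsed, are not stated in those sources, so intervals cover counting error only. The authors deposited 2 tables of variance-stabilised log2 values, each normalized on its own, and 2 DESeq2 tables with a mean signal, a log2 fold change, a score, and raw and adjusted p-values. A deposited count table holds human identifiers only and enters no comparison. The log2 values were turned back into whole reads (100% of values within 0.001 in every library; 39116 of 39116 DMSO values shared by both tables were equal), and the join kept the 9779 genes found in both, leaving out 874 and 41. Gene totals are at least 10 reads in each table.

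Reads were tested with edgeR 4.0.16 in R 4.3.3 (TMM, filterByExpr, glmQLFit and glmQLFTest, 1 fit of all 10 libraries, 5245 genes, Benjamini-Hochberg over all, call at 0.05); the SE is the log2 fold change over the square root of the F statistic. Alternatives used other scalings, no filter, DESeq2 1.42.0, limma 3.58.1 and each library left out. The fit and the recovery of reads were tested on simulated data. Pair ratios add 0.5 to each count. Members, lists and rules were chosen with earlier results of these data known. Named were all 4 members, keratins called for benzamil over DMSO or highest in CPM (at most 8), up to 4 called genes per other list with the largest change (genes named beyond the rule are marked), and the 5 genes most like each member, of which 1 is not reported here. Gene identifiers were matched to GENCODE M21 without version numbers. DMSO and benzamil libraries share replicate numbers, which the labels do not say pair animals, so no block was used. Deviations from the group means correlated at 0.00069 to 0.0686 between same-numbered libraries and at −0.129 to 0.17 between others.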

Additional observations from a re-analysis of the deposited data

Results flagged for a closer look

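In the DMSO group, Krt16 in library 1 stood at 2634 CPM, apart from the other 3 (1972 to 2068 CPM): its gap to the nearest made up 0.855 of the group's range, above Dixon's 95% critical value of 0.829 for 4 samples. In the benzamil group, Krt16 in library 4 stood at 3113 CPM against 440.3 to 604 CPM, a gap of 0.939 of the range. These were the 2 values that stood out among 22 groups of 4 checked, and chance alone gives about 1 in 20.

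The count table with human identifiers was not used in any comparison, although the labels give mouse samples and the notes mm10. In it KRT17 held 74 counts in the DMSO libraries, 30 with benzamil and 1 untreated, and KRT6C held 17, 13 and 0. Those counts come from 35958 to 136930 counts per DMSO library, 15613 to 43854 per benzamil library, and 8752 and 10394 per untreated library. The totals differ between groups, so the summed counts alone do not show a rise or a fall. KRT6A held 87, 10 and 1 counts, KRT16 held 12, 1 and 6, and KRT6B 0, 2 and 4 in the same order of groups. In CPM of each library's total in that table, KRT17 was at 148 to 336 with DMSO and 64.0 to 329 with benzamil. KRT6C was at 27.8 to 106 with DMSO and 0 to 137 with benzamil, and KRT6A at 111 to 533 and 22.8 to 196. For each of these genes the ranges overlapped. KRT16 was at 0 to 65.7 with DMSO and at 0 and 686 untreated.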

How the results depend on the processing

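Depth limits what can be said against untreated skin, where the 4 genes had 3 to 12 reads in 2 libraries together. Fitted changes from it for Krt16 and Krt17 reached 12.47 and 10.71 when the untreated library with reads was left out, and then depend on the prior count.

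Direction and call of Krt6a, Krt6b and Krt17 in benzamil over DMSO, and of all 4 in DMSO over untreated, held under every alternative that gave a value. Krt16 in benzamil over DMSO, not called at −0.93, was called with total counts alone (−1.16), no filter on low counts (−0.997), limma on the deposited values (−1.36) and the replicate block (−1.42), and lay between −2.06 and −0.65 with 1 library left out; DESeq2 gave it no adjusted p. In benzamil over untreated, Krt6b was not called with total counts alone (3.39), and Krt17 was called with no filter (2.36), DESeq2 (2.19) and the replicate block (1.88). With 1 library left out, Krt6a in that comparison ranged from 2.68 to 3.51, Krt6b from 3.16 to 4.11, Krt16 from 4.18 to 11.53 and Krt17 from 1.21 to 9.39. The cause of these changes was not tested.

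Genes called in benzamil over DMSO, 520 higher and 635 lower, became 248 and 1009 with total counts alone and 327 higher with DESeq2, and ranged from 291 to 632 and from 356 to 799 with 1 library left out. In DMSO over untreated, 521 higher became 305 with DESeq2 and 2369 with limma, and ranged from 225 to 532, and 443 lower from 208 to 448. In benzamil over untreated, 128 higher became 63 with total counts alone, 200 with no filter and 77 with only the groups compared, and ranged from 63 to 141, and 82 lower from 36 to 92. Replicate numbers were not shown to pair libraries; with them as a block higher and lower calls numbered 565 and 634 (benzamil over DMSO), 162 and 150 (DMSO over untreated), and 73 and 33 (benzamil over untreated), and not every library correlated best with its own number.

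With 2 added to each count, the differences were −1.13 for Krt6b over Krt6a, −0.85 for Krt6a over Krt17, −1.90 for Krt6b over Krt16 and −1.98 for Krt6b over Krt17, none past the threshold. With 1 library left out they ranged from −1.38 to −0.97, −0.99 to −0.67, −2.31 to −1.69 and −2.27 to −1.75, and Krt16 over Krt17, at −0.05, from −0.31 to 0.073. Over all reads outside ribosomal RNA in place of keratin reads, the log2 ratio of the mean stress keratin share moved from −2.21 to −1.81 with benzamil against DMSO and from 4.24 to 5.28 with DMSO against untreated.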
